A study of Mus musculus with 6 samples.

Results

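Oxidative phosphorylation subunits are the nuclear-encoded proteins that build the 4 respiratory chain complexes and the ATP synthase of the mitochondrial inner membrane, and their transcripts were followed here in mouse colon tumors. Members were taken by gene symbol: every array probe annotated to a numbered subunit of the Ndufa, Ndufb, Ndufc, Ndufs or Ndufv series (complex I), Sdha to Sdhd (complex II), a Uqcr gene (complex III), a Cox5 to Cox8 subunit (complex IV) or an Atp5 gene (complex V, ATP synthase). The rule found 116 probes of 76 genes among the 45281 probes and 19057 named genes of the array. Of these, 101 probes of 71 genes were bright enough to be tested, beside 22641 tested probes in all. Complex I gave 49 tested probes of 34 genes, complex II 5 of 3, complex III 8 of 7, complex IV 14 of 11 and complex V 25 of 16.

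Tumor RNA was hybridised to Illumina mouse BeadChips with 1 array per mouse, and 3 WT mice were compared with 3 Chrm3-/- mice, which lack the M3 muscarinic receptor. All were male, aged 7 months by the labels, on a 129S6/SvEvTac X CF1 mixed background, and all had received azoxymethane (AOM), a carcinogen that acts on the colon. The design asks which tumor transcripts differ with the receptor gene. The knockout was carried in every cell of the animal, and whole tumors were used, so fewer cells of a type and less RNA per cell cannot be told apart.

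Complexes I and II take electrons from NADH and succinate, complex III passes them to cytochrome c, and complex IV gives them to oxygen. Complexes I, III and IV pump protons across the inner membrane, and complex V lets them return through its rotating c-ring to make ATP. Healthy absorptive colonocytes rely on this chain to burn short-chain fatty acids from the gut lumen. Each complex except complex II also holds subunits encoded by mitochondrial DNA, which fall outside the rule, as does Ndufab1, the acyl carrier protein of complex I.

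Values are normalized intensities on a linear scale, and fold changes were fitted on log2(value + 50) with limma, which understates the change of dim probes. Levels are compared only between arrays for the same probe. An adjusted p at or under 0.05 (Benjamini-Hochberg over all tested probes) counted as a call. The only probe of Chrm3 read 9.06, 1.80 and 1.93 on the WT arrays and 25.1, 32.1 and 21.9 on the Chrm3-/- arrays (log2 fold change 0.49, adjusted p = 0.365 with limma). These dim values run against the labels, but no source used here says where the probe lies relative to the deleted sequence, and it therefore does not check the genotype. Group names below are therefore those of the labels. Chrm3-/- replicate 1 stood apart from the other 5 arrays, with correlations of 0.916 to 0.950 over all probes, while the others correlated with each other at 0.970 to 0.986.

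No oxidative phosphorylation probe passed the adjusted threshold with limma, against 0.124% of all probes tested. At an unadjusted p under 0.05 there were 3 members (Atp5g2, Uqcrq and a dim Ndufb11 probe), or 2.97% of the 101, against 4.82% of all probes tested. The methods' t-test on the same values also gave 3 members at that level and 0 after adjustment. The groups did not overlap for 8 members, or 7.92%, against 10.7% of all probes tested. Of these, 5 were higher in Chrm3-/- tumors (5.2% of all probes tested were) and 3 were lower (5.5%); a dim Sdhb probe among the former was bright enough to be tested only through the Chrm3-/- arrays. Both shares of members lay under the background. For a single probe, 3 arrays against 3 cannot give an exact permutation p below 0.1.

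The median SE of the fold change was 0.168 over members, little below the 0.187 over all probes tested. Whether an interval stays within a limit depends on the size of the change as well as on its SE. The 95% confidence interval of the fold change stayed within 2-fold in either direction for 98 of 101 members (97.0%), against 81.9% of all probes tested. It stayed within 1.5-fold for 70 members (69.3%), against 49.0%. Among probes with a mean of at least 500, the 2-fold limit held for 70 of 71 members and for 3327 of 4386 probes in all. The 3 members whose interval passed 2-fold were Atp5g2, Cox7a1 and Cox7b. Fitted log2 fold changes ran from -1.10 for Atp5g2 to 0.57 for Cox7a1, and their SD over members was 0.18 against 0.34 over all probes tested. Other than Atp5g2, the lowest was -0.34. The plot of fold changes with their intervals shows this narrow band.

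**Figure D1:**
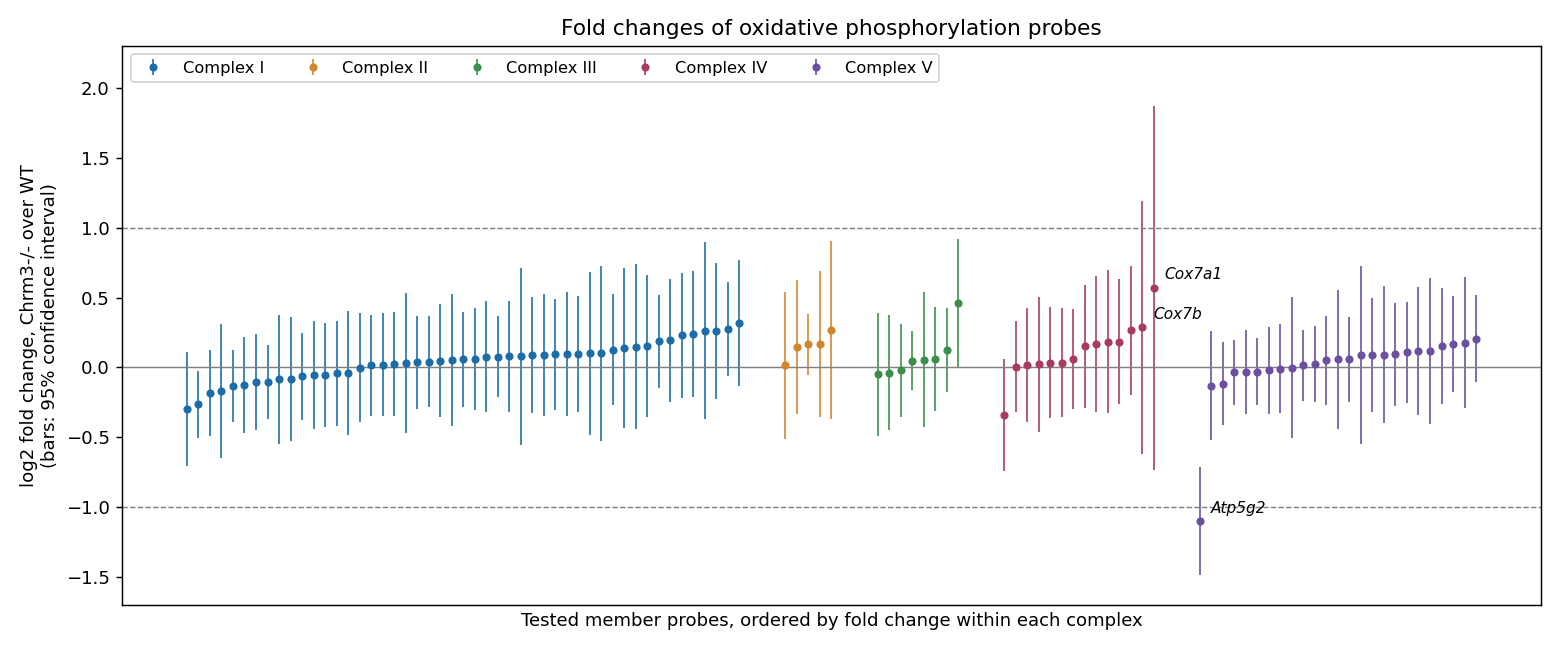
The vertical axis is the log2 fold change of Chrm3-/- over WT tumors for each of the 101 tested member probes, with bars for the 95% confidence interval from limma, ordered within each complex; dashed lines mark 2-fold. Of the 101 intervals, 98 stay between the dashed lines, and Atp5g2 lies lowest at -1.10.

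Set side by side, the 5 complexes had similar median log2 fold changes. The median was 0.058 for complex I (33 probes above 0 and 16 below), 0.17 for complex II (5 and 0, or 0.16 and 4 and 0 without the dim Sdhb probe just named), 0.052 for complex III (5 and 3), 0.11 for complex IV (13 and 1) and 0.058 for complex V (16 and 9). Over all members it was 0.059 (72 above and 29 below), and over all probes tested it was 0.011, with 52.4% above 0. Every complex median was smaller than the SD of that complex between replicates, which ranged from 0.12 for complex V to 0.23 for complex IV. For complex II the median and the SD were nearly equal (0.166 and 0.168). This SD describes the spread of single arrays and is larger than the error of a difference between group means.

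Seen array by array, the complexes moved mainly with Chrm3-/- replicate 1. The median deviation of complex I from the WT mean, on the log2 scale, was -0.054, -0.029 and 0.083 on the WT arrays and 0.21, -0.097 and -0.043 on the Chrm3-/- arrays. Complex II read -0.0048, -0.072 and 0.12, then 0.36, -0.069 and 0.11. Complex III read -0.081, 0.039 and 0.026, then 0.30, -0.055 and -0.12. In all of these, Chrm3-/- replicate 1 was the highest array, and Chrm3-/- replicate 2 lay within or below the WT range. Complex IV read -0.081, -0.014 and 0.10 on the WT arrays and 0.45, -0.13 and -0.034 on the Chrm3-/- arrays. Complex V read -0.057, 0.012 and 0.047, then 0.21, -0.091 and -0.0056. Complex IV thus had the widest span between Chrm3-/- arrays, and in complexes IV and V, too, only replicate 1 stood above the WT range.

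**Figure D2:**
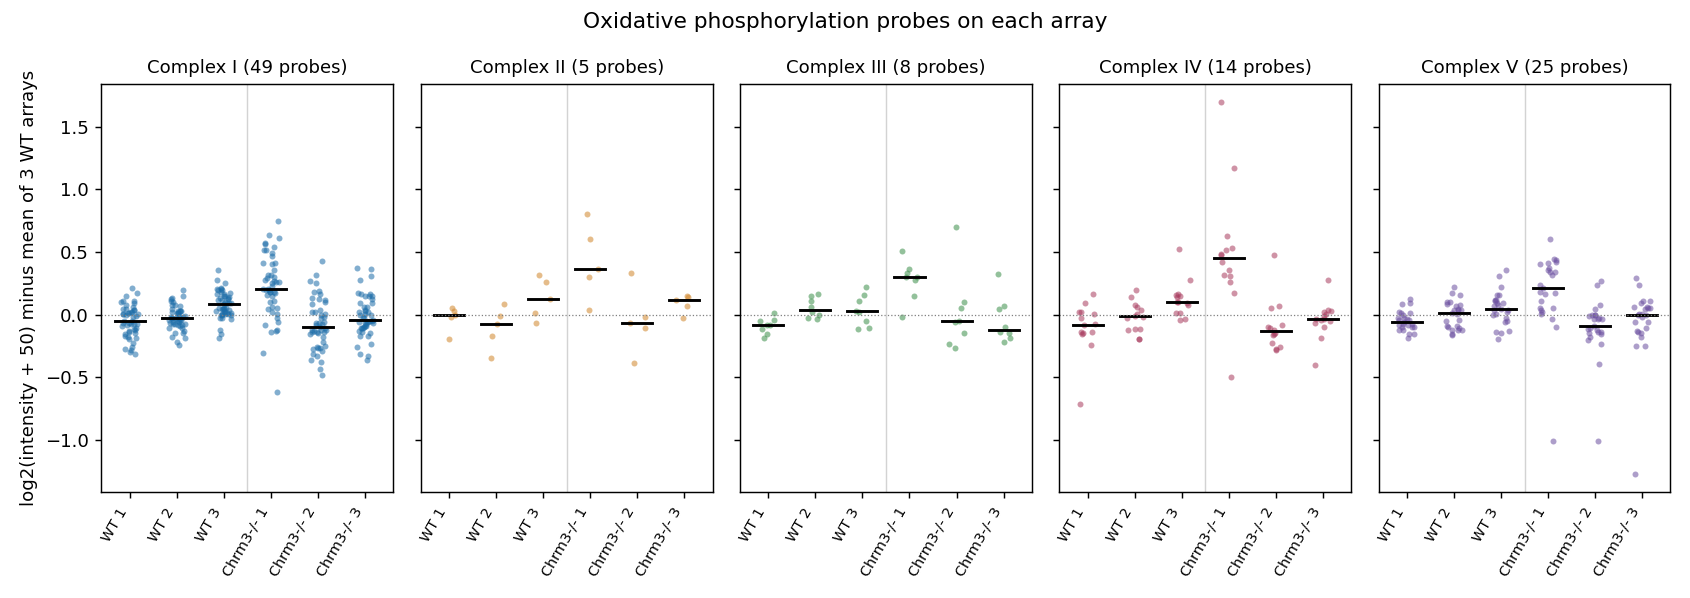
Each point is 1 tested member probe on 1 array, plotted as log2(intensity + 50) minus its mean over the 3 WT arrays; black bars are medians per array and the 5 panels are complexes I to V. The bars of Chrm3-/- replicate 1 sit at 0.21, 0.36, 0.30, 0.45 and 0.21, the highest array in each panel.

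Chrm3-/- replicate 1 was the highest of the 6 arrays for 65 of 101 members (64.4%), against 24.4% of all probes tested. For complex IV it was the highest for 12 of 14 probes. Chrm3-/- replicate 2 was the lowest array for 36 members (35.6%), against 20.9% of all probes tested. WT replicate 1 was the lowest for 31 members (30.7%), against 14.7%. Without Chrm3-/- replicate 1, 35 members lay above 0 and 66 below, with a median of -0.056, while the median over all probes tested was 0.013. The medians were then -0.055 for complex I, 0.0019 for complex II, -0.090 for complex III, -0.070 for complex IV and -0.047 for complex V. The direction of 4 complexes therefore rested on 1 array. No member passed the adjusted threshold without that array either (limma), and 3 (2.97%) had an unadjusted p under 0.05, against 7.45% of all probes tested in that fit.

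Several marker lists of tissue composition moved with the same array. Absorptive colonocyte markers, 9 of 10 genes tested, summed to 4788 to 12571 on the WT arrays, and to 56685, 2783 and 9678 on the Chrm3-/- arrays, with a median deviation of 2.26 on replicate 1 and -0.83 on replicate 2. Smooth muscle markers, 9 of 10 genes tested, summed to 14189 to 19798 on the WT arrays, and to 61619, 18657 and 24060 on the Chrm3-/- arrays. Goblet cell markers, 5 of 7 genes tested, deviated by 0.89 on replicate 1 and -0.81 on replicate 2. Leukocyte markers, 5 of 9 genes tested, deviated by 0.94 and -0.64. The log2 fold changes of the 10 leukocyte probes ran from -2.14 to 0.38, and 1 was lower without overlap, beside 5.5% of all probes tested. Fibroblast markers, 8 of 8 genes tested, took another course: they deviated by -0.20, -0.43 and -0.39 on the Chrm3-/- arrays and summed to 12858 to 14068 there, against 16604 to 22395 on the WT arrays. Of their 14 probes 12 lay below 0 and 6 were lower without overlap, beside 5.5% of all probes tested. None passed the adjusted threshold, and 5 had an unadjusted p under 0.05 (limma), beside 4.82% of all probes tested. All 16 smooth muscle probes lay above 0, and 4 were higher without overlap, beside 5.2% of all probes tested. Of these 16 probes, 3 had an unadjusted p under 0.05 and 0 passed the adjusted threshold (limma). Proliferation markers, 6 of 9 genes tested, did not rise on replicate 1. They deviated by -0.14, 0.46 and -0.26 on the WT arrays and by -0.38, -0.13 and 0.54 on the Chrm3-/- arrays. Epithelial markers summed to 27284 to 34636 on the WT arrays and 30793 to 37930 on the Chrm3-/- arrays, so epithelial transcripts were present on every array, although the probe of Epcam, a defining marker, was dim (means of 10.6 and 1.40). Of the colonocyte list only Fabp2 read under 2 everywhere, and of the smooth muscle list no gene did. The part of these cells in the subunit values was not tested.

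**Figure D3:**
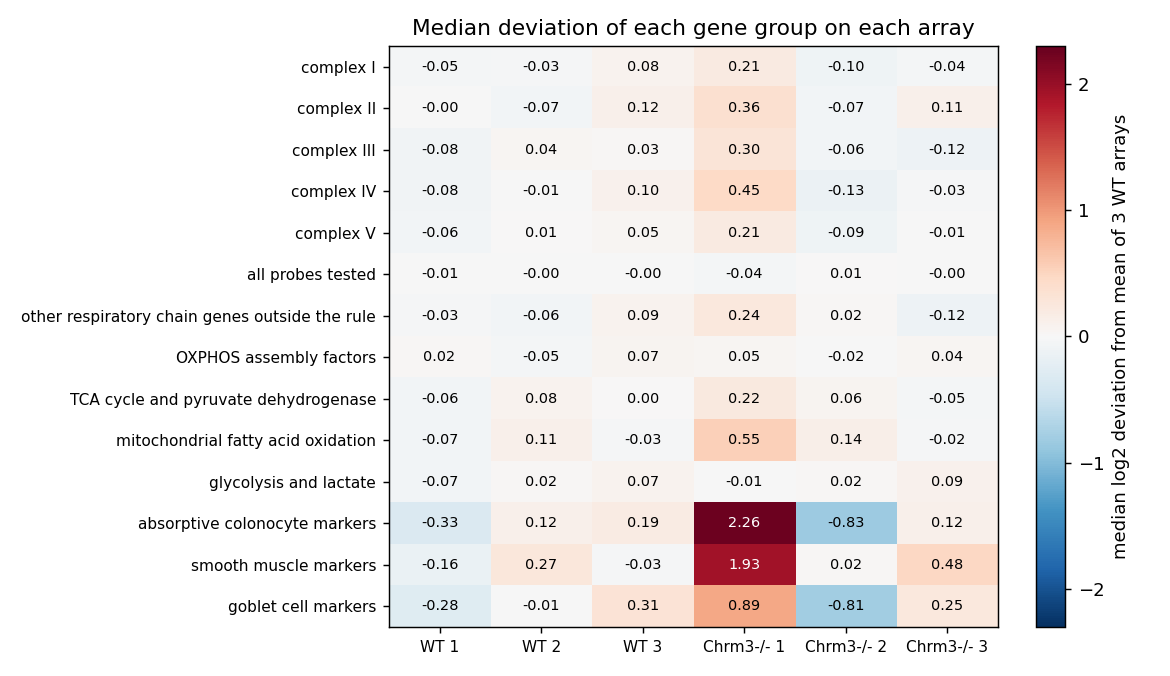
Rows are gene groups and columns the 6 arrays; each cell gives the median log2 deviation of the group's tested probes from the mean of the 3 WT arrays. Colonocyte (2.26) and smooth muscle markers (1.93) are highest on Chrm3-/- replicate 1, where fatty acid oxidation genes (0.55) and complex IV (0.45) also stand highest.

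In complex I, the NADH-binding arm gave small differences of both signs. Ndufv2, an iron-sulfur subunit of the NADH module, read 4206, 4520 and 4590 on the WT arrays and 4350, 3647 and 3758 on the Chrm3-/- arrays. Its groups overlapped, with a log2 fold change of -0.18 (SE 0.13, adjusted p = 0.991). Ndufv1, which binds NADH and the flavin, had a log2 fold change of 0.19 (SE 0.14). Among other core subunits of this arm, the values were 0.077 for Ndufs3, 0.19 for Ndufs7 and -0.062 for Ndufs8, each within about 1 SE of 0. The single probe of Ndufs1, the largest subunit of this arm, read under 2 on all 6 arrays and was not tested.

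Accessory subunits of complex I held the members with the widest differences of the complex. Ndufb9, of the membrane arm, read 505, 520 and 510 on the WT arrays and 821, 625 and 535 on the Chrm3-/- arrays. All 3 Chrm3-/- values lay above all WT values, though replicate 3 by little (log2 fold change 0.32, SE 0.19, adjusted p = 0.991). Ndufs6, a zinc-binding subunit, went the other way with its bright probe: it read 6284, 6392 and 6910 on the WT arrays and 5935, 6060 and 6236 on the Chrm3-/- arrays (-0.10, SE 0.11), without overlap, while its dimmer probe overlapped at 0.032. Ndufa13, one of the brightest complex I probes, read 9051, 8353 and 9002 on the WT arrays and 8453, 7781 and 7818 on the Chrm3-/- arrays, a log2 fold change of -0.13 (SE 0.11) with overlap.

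Pairs of probes for the same gene did not always give 1 answer. A dim Ndufb11 probe read 23.2, 23.0 and 24.3 on the WT arrays and 9.42, 17.4 and 7.27 on the Chrm3-/- arrays, without overlap (-0.26, SE 0.10, unadjusted p = 0.0364, adjusted p = 0.991 with limma). The other Ndufb11 probe gave 0.080, and this span of 0.34 was the widest of the 23 genes with several tested probes. A dim Ndufv3 probe read 35.1, 29.6 and 22.5 on the WT arrays and 42.4, 56.2 and 39.0 on the Chrm3-/- arrays, again without overlap (0.28, SE 0.14). The brighter Ndufv3 probes gave 0.056 and 0.23 with overlap. Over the 23 genes, all probes shared a sign for 13 and differed in sign for 10, and the median span was 0.12. The remaining 48 tested genes rested on 1 probe.

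Ndufa4 was described first as a complex I subunit and is now placed in complex IV. It read 10864, 10653 and 8845 on the WT arrays and 6561, 9144 and 9144 on the Chrm3-/- arrays. Here Chrm3-/- replicate 1 was the lowest array, the opposite of most members, and replicates 2 and 3 lay inside the WT range. The log2 fold change was -0.30 (SE 0.17, adjusted p = 0.991). Chrm3-/- replicate 1 was the lowest array for 3 tested members only: Ndufa4, Ndufs6 and Cox6b2. With Ndufa4 counted in complex IV and Cox7a2l left out, the complex IV median was 0.047.

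Complex II also works in the citric acid cycle. Of its 5 tested probes, 4 were above the brightness limit in both groups, and these 4 lay above 0. Sdhb, its iron-sulfur subunit, was read by 3 tested probes. The brightest read 1135, 967 and 1197 on the WT arrays and 1686, 1042 and 1076 on the Chrm3-/- arrays, and the second 733, 801 and 1023 against 1506, 779 and 917. In both, Chrm3-/- replicate 1 was the highest and the other Chrm3-/- arrays lay within the WT range (0.17, SE 0.22, and 0.27, SE 0.27). The dimmest Sdhb probe did not overlap, with 2.05, 1.83 and 2.80 against 3.41, 15.5 and 7.49, but these values lie near the bottom of the scale, and the probe entered the test only through its higher Chrm3-/- values, which favored a difference above 0. The membrane anchor Sdhc read 2343, 1800 and 2878 on the WT arrays and 2849, 2270 and 2553 on the Chrm3-/- arrays (0.14, SE 0.20), and the other anchor, Sdhd, had a log2 fold change of 0.015. The single probe of Sdha, the flavoprotein, read under 2 throughout and was not tested.

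In complex III the bright probes overlapped between the groups. Uqcr11, a small subunit, read 6410, 6650 and 7329 on the WT arrays and 8245, 7052 and 7000 on the Chrm3-/- arrays (0.13, SE 0.13). Uqcr10, another small subunit, was read by 2 bright probes: the brighter gave 11034, 12576 and 10544 against 13987, 9422 and 10280, the other 9287, 11317 and 9725 against 12679, 9725 and 9379. On both, Chrm3-/- replicate 1 was the highest array, and the fitted values were -0.037 and 0.059. The core subunits Uqcrc1 and Uqcrc2 had log2 fold changes of -0.050 (SE 0.19) and 0.056 (SE 0.20).

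Uqcrq, a small subunit that contacts cytochrome b, was the exception in complex III. Its tested probe read 37.6, 47.4 and 66.1 on the WT arrays and 78.4, 112 and 75.0 on the Chrm3-/- arrays. The groups did not overlap, and Chrm3-/- replicate 2, not replicate 1, was the highest (0.46, SE 0.19, unadjusted p = 0.0476, adjusted p = 0.991 with limma). Its other probe read under 2 on all arrays. The Rieske iron-sulfur protein Uqcrfs1 had a dim tested probe, 6.94, 10.7 and 1.93 on the WT arrays against 5.61, 10.4 and 9.02, with full overlap.

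Complex IV, cytochrome c oxidase, followed Chrm3-/- replicate 1 most closely. Cox5a, a matrix-side subunit, read 9656, 9902 and 9379 on the WT arrays and 12363, 7968 and 9422 on the Chrm3-/- arrays (0.017, SE 0.17). Cox5b, the zinc-binding subunit, read 8979, 8187 and 9516 against 10978, 8026 and 9002 (0.060, SE 0.15). Cox6c read 6929, 6698 and 6896 against 9533, 5843 and 6012 (0.022, SE 0.20). On these 3 probes replicate 1 lay above all WT arrays and replicate 2 below all of them. A second Cox5b probe read 1636, 1825 and 2020 against 2628, 1885 and 1808 (0.19, SE 0.19), with replicate 1 again highest and the other Chrm3-/- arrays inside the WT range.

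Cox7a1, the isoform of heart and skeletal muscle, read 139, 306 and 395 on the WT arrays and 956, 209 and 326 on the Chrm3-/- arrays, a log2 fold change of 0.57 (SE 0.55, adjusted p = 0.991). Only replicate 1 lay above the WT range, and without it the log2 fold change was 0.0071. The smooth muscle list deviated by 1.93 on that array. Of 5 matched skeletal or cardiac muscle markers 1 was tested, Actn2, which was dim but also highest on that array (17.9, 1.66 and 1.85 on the WT arrays and 32.8, 2.15 and 4.09 on the Chrm3-/- arrays), and Myh6 read under 2 on all arrays. The part of muscle cells in the Cox7a1 values was not tested. Cox7a2, the isoform found in most tissues, read 335, 304 and 442 against 517, 375 and 358 (0.18, SE 0.21).

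Cox7b, a small subunit, showed the same outline as Cox7a1. It read 203, 156 and 204 on the WT arrays and 483, 145 and 181 on the Chrm3-/- arrays (0.29, SE 0.38), and -0.16 without replicate 1. Cox7a2l, which helps join complexes III and IV into supercomplexes, read 1539, 1782 and 1804 against 2302, 2390 and 1586 (0.27, SE 0.19), with replicates 1 and 2 above the WT range and replicate 3 inside it. Cox6b2, the testis isoform, was the 1 complex IV probe below 0, with 72.2, 50.2 and 56.7 against 27.5, 50.5 and 32.6 (-0.34, SE 0.17) and overlap at the 50.5 of replicate 2. Cox8b, a muscle isoform, was dim, with 1.94, 13.8 and 8.14 on the WT arrays against 39.2, 1.85 and 9.08 (0.17, SE 0.21) and replicate 1 highest. The probes of Cox6a2, Cox7b2 and Cox8c were too dim to be tested.

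**Figure D4:**
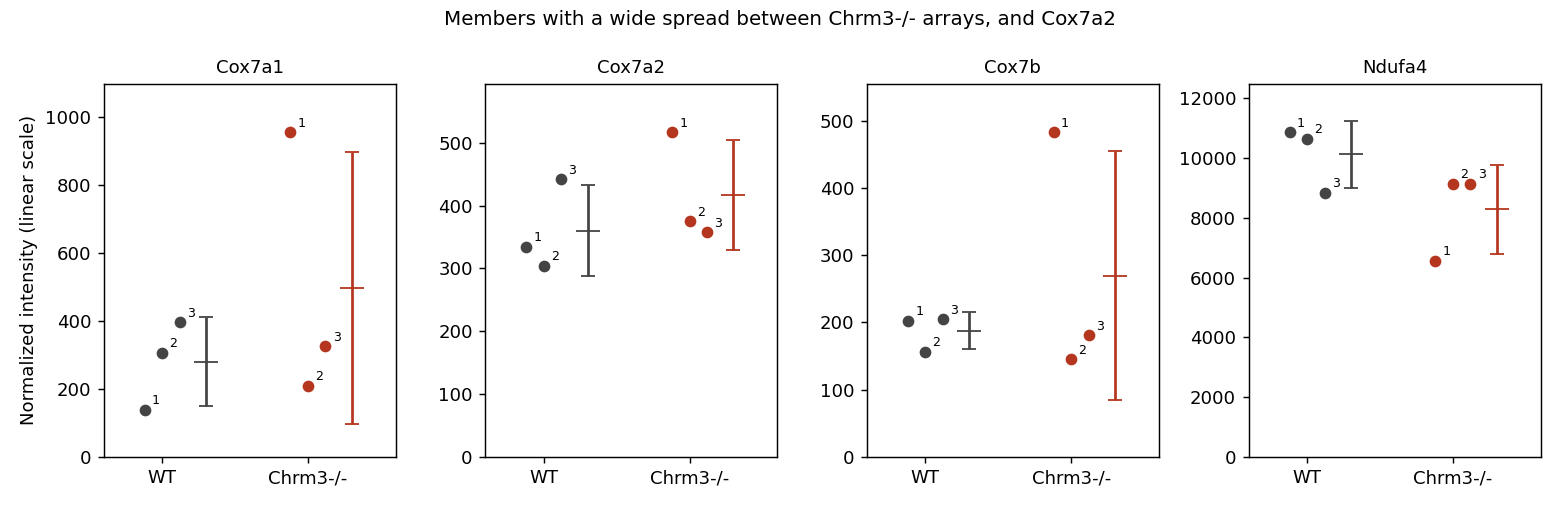
Normalized intensity on a linear axis from 0 for Cox7a1, Cox7a2, Cox7b and Ndufa4; numbered points are arrays, and the bar beside each group is the mean with the SD of 3 arrays. Chrm3-/- replicate 1 is highest for Cox7a1 (956), Cox7a2 (517) and Cox7b (483) and lowest for Ndufa4 (6561).

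In the ATP synthase, 24 of the 25 tested probes had log2 fold changes between -0.13 and 0.20, and Atp5g2 stood outside them. Atp5g2 encodes a precursor of subunit c, the membrane protein that forms the rotor ring. It read 1718, 2001 and 1607 on the WT arrays and 851, 851 and 703 on the Chrm3-/- arrays, means of 1775 ± 203 and 802 ± 85.3 (SD, n = 3 each). Every Chrm3-/- array lay below every WT array, and the highest Chrm3-/- value was well under the lowest WT value. On the fitted scale the WT level was 2.14-fold that of Chrm3-/- tumors, a log2 fold change of -1.10 (SE 0.16, 95% confidence interval -1.48 to -0.72).

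The Atp5g2 difference had an unadjusted p of 0.000275, rank 57 of the 22641 probes, and an adjusted p of 0.106 with limma, above the threshold. Over the alternatives tried the adjusted p ranged from 0.0045 to 0.531, and it passed only with array weights, whose estimate did not converge. The log2 fold change stayed between -1.24 and -0.98, and between -1.17 and -1.01 when any 1 array was left out. Unlike most members it did not follow Chrm3-/- replicate 1: without that array it was -1.14 (adjusted p = 0.117). Atp5g2 was read by 1 probe only. Fibroblast markers, like Atp5g2, had median deviations below 0 on all 3 Chrm3-/- arrays, and their part in its value was not tested.

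Mammals carry several subunit c genes whose precursors differ in the targeting peptide and give the same mature protein. Atp5g3, one of them, read 18449, 17689 and 18731 on the WT arrays and 18332, 16980 and 18214 on the Chrm3-/- arrays (-0.036, SE 0.097), with overlap. Atp5g1 was not analysed here. In the catalytic head, Atp5b, the beta subunit that makes ATP, read 16796, 19350 and 17989 against 20823, 16389 and 19410 (0.060, SE 0.13). Atp5a1, the alpha subunit, gave 0.091 (SE 0.21) and 0.026 with its 2 probes, and Atp5c1, the central stalk, gave -0.12 (SE 0.12).

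**Figure D5:**
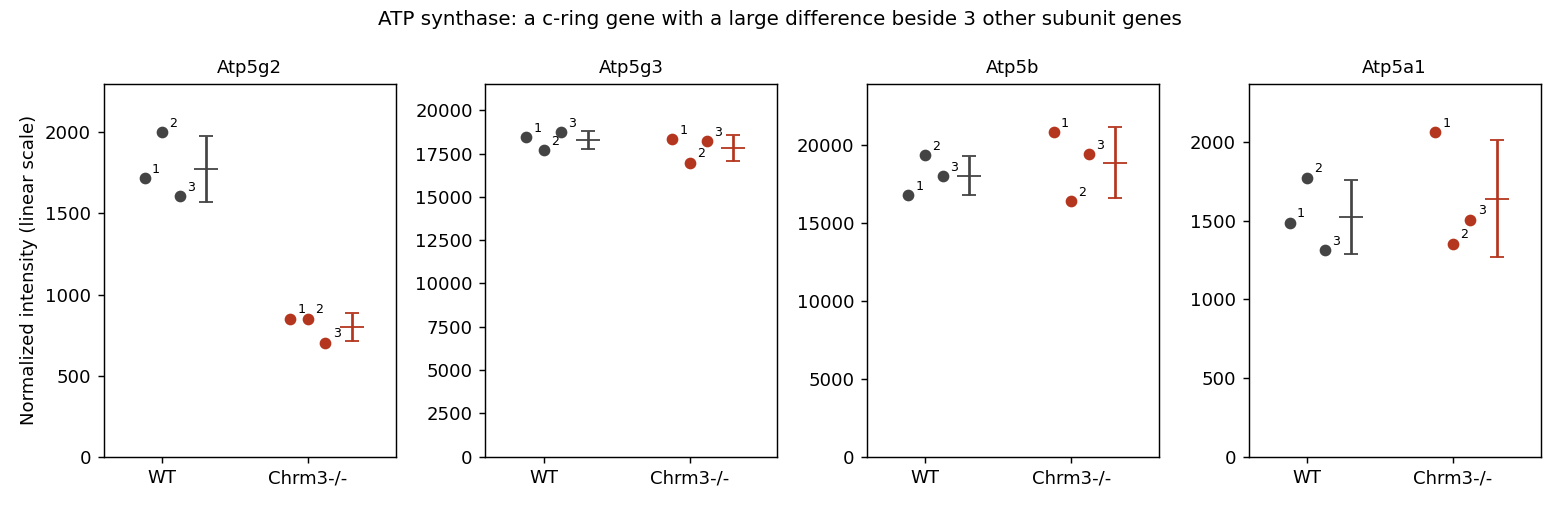
Normalized intensity on a linear axis from 0 for the subunit c genes Atp5g2 and Atp5g3 and for Atp5b and the brighter Atp5a1 probe; numbered points are arrays, and the bar beside each group is the mean with the SD of 3 arrays. Atp5g2 separates the groups (1607 to 2001 against 703 to 851), while the other genes overlap.

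Among the stalk and membrane subunits of the ATP synthase, Atp5l (subunit g) was the only further bright probe without overlap. That probe read 2293, 2301 and 2577 on the WT arrays and 2817, 2883 and 2579 on the Chrm3-/- arrays, where replicate 3 exceeded WT replicate 3 by the smallest margin (0.20, SE 0.13). A brighter Atp5l probe overlapped, at 0.017. Atp5j, coupling factor 6 of the stalk, read 5817, 6334 and 6376 on the WT arrays and 8205, 6156 and 6578 on the Chrm3-/- arrays (0.17, SE 0.15), with replicate 1 highest, while its dimmer probe gave -0.13. Atp5o, the subunit that confers oligomycin sensitivity, gave -0.0082, 0.12 and 0.18 with its 3 probes.

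Promoter sequence is shown for the subunit c genes, because Atp5g2 had the widest difference of the members and Atp5g3 hardly any, and for Cox6a1, because its window holds matches to a pair of motifs known from respiratory chain promoters. Sequences are RefSeq's (GRCm38.p6), from 250 bases before to 50 after the start. Capitals mark matches on either strand to GCATGCGC (NRF1, nuclear respiratory factor 1) and CCGGAAG (the ETS motif bound by GABP), and matches that overlap run together. Atp5g2 lies at chr15:102670998-102671297 (minus strand), Atp5g3 at chr2:73911277-73911576 (minus strand) and Cox6a1 at chr5:115348909-115349208 (minus strand).
Atp5g2: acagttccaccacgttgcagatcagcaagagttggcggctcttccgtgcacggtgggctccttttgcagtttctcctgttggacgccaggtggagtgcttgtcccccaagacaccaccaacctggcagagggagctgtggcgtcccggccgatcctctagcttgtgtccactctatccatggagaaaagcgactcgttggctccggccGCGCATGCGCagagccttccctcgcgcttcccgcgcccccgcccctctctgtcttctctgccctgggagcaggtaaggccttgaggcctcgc
Atp5g3: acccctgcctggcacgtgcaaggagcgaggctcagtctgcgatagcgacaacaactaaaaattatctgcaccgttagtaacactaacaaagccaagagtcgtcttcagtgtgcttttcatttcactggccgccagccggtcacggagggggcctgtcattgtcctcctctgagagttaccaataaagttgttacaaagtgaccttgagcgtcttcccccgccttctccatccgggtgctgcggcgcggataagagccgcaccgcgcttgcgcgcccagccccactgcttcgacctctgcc
Cox6a1: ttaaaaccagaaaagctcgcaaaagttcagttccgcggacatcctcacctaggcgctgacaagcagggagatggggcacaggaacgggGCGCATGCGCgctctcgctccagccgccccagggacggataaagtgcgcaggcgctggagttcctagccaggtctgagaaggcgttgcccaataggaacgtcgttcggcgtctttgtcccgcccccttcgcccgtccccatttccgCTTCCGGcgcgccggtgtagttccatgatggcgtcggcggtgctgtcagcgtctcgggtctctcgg

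The Atp5g2 window held the NRF1 letters, the Atp5g3 window held none of the motifs searched, and the Cox6a1 window held both NRF1 and ETS letters. Windows were found for 64 member genes, 69 in all. The NRF1 letters stood in 10 of these (14.5%) against 2.71% of all 32851 windows of the same length, and the ETS letters in 16 (23.2%) against 8.86%. The YY1 letters ATGGCGG, which can overlap the start codon context of a first exon, stood in 11 (15.9%) against 4.05%, and 9 of these were among the 33 windows of complex I. A match is a description of the letters only, and some genes have 2 windows that overlap.

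Genes that serve the chain without being subunits by the rule were described from lists, and none of their probes passed the adjusted threshold with limma. Other respiratory chain genes (20 probes) had a median log2 fold change of 0.031 and 0 probes with an unadjusted p under 0.05. Assembly factors (44 probes) had a median of 0.039 and 4 such probes, beside 4.82% of all probes tested. Surf1, which assembles complex IV, accounted for 2 of these 4. Its probes read 122, 95.2 and 88.0 on the WT arrays against 330, 178 and 143, and 147, 116 and 123 against 371, 230 and 163. Both probes placed every Chrm3-/- array above every WT array, with replicate 1 highest (0.76, SE 0.28, and 0.72, SE 0.27, adjusted p = 0.984 and 0.991). Of the 44 assembly factor probes, 5 were higher without overlap and 1 was lower, beside 5.2% and 5.5% of all probes tested.

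Tmem126b, an assembly factor of complex I, read 102, 90.7 and 116 on the WT arrays and 188, 186 and 136 on the Chrm3-/- arrays, without overlap (0.52, SE 0.19, adjusted p = 0.958). A dim probe of Ttc19, a complex III factor, read 26.0, 41.9 and 21.2 against 5.86, 9.03 and 8.30 (-0.46, SE 0.12, adjusted p = 0.705), but the other Ttc19 probes gave -0.085 and 0.038. Regulators of mitochondrial genes (21 probes) had a median of 0.036 and 0 probes with an unadjusted p under 0.05 with limma. Of these 21 probes, 1 was higher without overlap and 0 were lower, beside 5.2% and 5.5% of all probes tested. The higher probe was that of the coactivator Ppargc1a (0.32, SE 0.17, adjusted p = 0.991). It read 69.0, 56.2 and 77.9 on the WT arrays and 97.5, 87.7 and 104 on the Chrm3-/- arrays.

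Fuel pathways that feed the chain had medians above 0, as had the subunits (0.059) and all probes tested (0.011). Without Chrm3-/- replicate 1 the subunit median was -0.056, and list medians without that array are not given here. Citric acid cycle genes (26 probes) had a median log2 fold change of 0.12 and fatty acid oxidation genes (20 probes) 0.16. Each list had 1 probe at an unadjusted p under 0.05 with limma (Fh1 at -0.49 and Acaa2 at 0.94). The other tested Fh1 probe gave 0.20, and the other Acaa2 probes gave 0.45, 0.32 and 0.25, all with overlap. On Chrm3-/- replicate 1 the citric acid cycle and fatty acid oxidation lists deviated by 0.22 and 0.55. Glycolysis genes (21 probes) had a median of 0.073 and deviated by -0.0054 on that array. Genes of the outer membrane and protein import (21 probes) had a median of -0.011 and deviated by -0.0020, so the shift of that array was not shared by every mitochondrial list.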

How the data were processed

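Normalized intensities on a linear scale were deposited as the series' value table; per the methods the authors made them by cubic spline normalization without background subtraction. Values of all 6 arrays form 1 identical set, so equal ranks give equal values, and 45.8% of each array are evenly spaced steps at the dim end. These reach about 1, and 46.1% are under 2. The 6 columns of a non-normalized table could not be tied to samples by name and were left unused. Probe genes came from GEO's platform annotation: 1 symbol was given for 34885 probes and several for 18, and the annotation did not list 10378.

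The 3 WT and 3 Chrm3-/- arrays were compared with limma 3.58.1 (R 4.3.3; lmFit, eBayes with trend) on log2(value + 50), two-sided, over the 22641 probes whose mean was at or above the median, with Benjamini-Hochberg adjustment. The fit was tested on simulated data. Values per array were given for the 3 smallest p and the 2 highest means in each complex and the 5 highest and 5 lowest fold changes; other members, the bright-probe limit of 500 and the fold limits of the confidence intervals were chosen after values were seen. The members and lists were chosen with earlier results of these data known. Labels name separate samples, with 1 array per mouse, so p-values measure the spread between 3 mice per group, and the number of arrays limits precision. Alternatives covered the offset (16, 200 or plain log2), the filter, the replicate block, trend, array weights, the methods' t-test, averaged probes, centred arrays, leaving out each array and, chosen after seeing the data, leaving out Ndufs5-ps, a transcribed pseudogene that the rule includes, leaving out the 1 member probe above the filter in 1 group only, and counts without Chrm3-/- replicate 1. No probe was named here for several subunits (Atp5g1, Cox7c, Cox8a, Uqcrb and others), which were not analysed here.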

Additional observations from a re-analysis of the deposited data

How the results depend on the processing

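The count of members passing was 0 under every alternative except array weights, which gave 1 (Atp5g2); those weights did not converge. Members with an unadjusted p under 0.05 numbered 1 to 9. Over all probes, 28 passed; the count was 45 on the plain log2 scale, 14 with an offset of 200, 12 without the filter, 252 with array weights, 9 with the methods' t-test, and 4 to 31 leaving out 1 array (6, 5 and 4 without WT replicates 1, 2 and 3, and 4 without Chrm3-/- replicate 3). Replicate numbers shared by the groups gave no sign of pairing. Over the tested probes, deviations from the group mean correlated at -0.15, -0.027 and 0.019 between same-numbered arrays. Between arrays of different number these correlations ran from -0.14 to 0.15. With the replicate block 1 probe passed over all probes and 0 members (Atp5g2 adjusted p = 0.531 with limma). Leaving out 1 array, the median log2 fold change ranged from -0.056 to 0.13 for all members, from -0.055 to 0.098 for complex I, from 0.0019 to 0.23 for complex II, from -0.090 to 0.096 for complex III, from -0.070 to 0.17 for complex IV and from -0.047 to 0.11 for complex V. The low ends came from leaving out Chrm3-/- replicate 1. With array weights complex III was at -0.11. Without Ndufs5-ps complex I was at 0.057, and without the dim Sdhb probe complex II was at 0.16. Of 436 values of the named members under alternatives, 18 changed sign, none of them called. Signal limits the rest: 5 member genes, Sdha and Ndufs1 among them, had no probe bright enough to test.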
